A study of Mus musculus with 12 samples.

Results

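The genes described here are enzymes of glycolysis, among them hexokinase 2 (Hk2) and lactate dehydrogenase A (Ldha), in developing kidney structures of mouse embryos at E14.5. Of 10 named genes (Hk1, Hk2, Pfkl, Pfkp, Aldoa, Tpi1, Pgk1, Pgam1, Eno1 and Ldha), 9 had a probe set, a group of oligonucleotides that measures 1 transcript, annotated to that symbol alone. These are 12 of the 12422 probe sets on the array. Eno1 had no such probe set and was left out. All samples came from wild-type Swiss Webster embryos at Theiler stage 22, and RNA was put through 2 rounds of T7 amplification before hybridization to Affymetrix MG_U74Av2 arrays. There were 4 groups of 3 arrays: 1 S-shaped body per array without pooling; S-shaped bodies in pools of 20; renal vesicles in pools of 20; and unpooled collecting duct, which the study used as its reference. The renal vesicle is the first epithelial stage of the nephron, the S-shaped body is the later stage in which glomerulus and tubule segments are laid out, and the collecting duct grows from the ureteric bud. Whether arrays of a group came from different embryos is not in the labels, so each p-value sets a difference against the spread among these arrays, which may be technical.

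Glycolysis splits glucose into pyruvate in the cytosol and yields ATP without oxygen. Hexokinases trap glucose in the cell as glucose 6-phosphate, phosphofructokinases commit it to the pathway, and aldolase and triose phosphate isomerase make and interconvert the three-carbon sugars. Phosphoglycerate kinase makes ATP, phosphoglycerate mutase shifts the phosphate, and lactate dehydrogenase A turns pyruvate into lactate and restores NAD+. Many of these genes are known targets of the hypoxia-inducible factors, which bind the core ACGTG or GCGTG, and of Myc proteins, which bind CACGTG. Kidney tubules of the adult differ in their use of glucose: proximal tubules rely mainly on oxidation of other fuels and make glucose, while the collecting duct also uses glycolysis.

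The start regions of Hk2, Pgam1 and Ldha, the 3 members with the largest change in pooled S-shaped bodies against collecting duct, are shown so that their letters can be set beside the levels. Each is 300 bases of RefSeq sequence (GRCm38.p6), 250 before and 50 after the annotated start, read 5′ to 3′ on the gene's strand. Capitals mark ACGTG or GCGTG on either strand, with overlapping matches joined. Hk2 lies on the minus strand at chr6:82774405-82774704, Ldha (the first of 2 listed starts) on the plus strand at chr7:46845554-46845853, and Pgam1 on the plus strand at chr19:41911621-41911920.
Hk2: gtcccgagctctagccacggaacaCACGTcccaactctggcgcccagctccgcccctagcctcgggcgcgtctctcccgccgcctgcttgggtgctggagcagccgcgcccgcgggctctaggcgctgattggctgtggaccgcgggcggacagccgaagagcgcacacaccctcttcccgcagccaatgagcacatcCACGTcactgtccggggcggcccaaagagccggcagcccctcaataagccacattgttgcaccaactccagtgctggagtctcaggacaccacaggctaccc
Ldha: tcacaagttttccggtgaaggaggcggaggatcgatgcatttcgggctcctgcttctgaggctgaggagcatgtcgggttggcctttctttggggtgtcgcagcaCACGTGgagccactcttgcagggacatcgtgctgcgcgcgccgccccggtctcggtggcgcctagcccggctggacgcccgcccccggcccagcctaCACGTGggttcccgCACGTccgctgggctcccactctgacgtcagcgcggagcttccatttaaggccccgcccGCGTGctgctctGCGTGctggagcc
Pgam1: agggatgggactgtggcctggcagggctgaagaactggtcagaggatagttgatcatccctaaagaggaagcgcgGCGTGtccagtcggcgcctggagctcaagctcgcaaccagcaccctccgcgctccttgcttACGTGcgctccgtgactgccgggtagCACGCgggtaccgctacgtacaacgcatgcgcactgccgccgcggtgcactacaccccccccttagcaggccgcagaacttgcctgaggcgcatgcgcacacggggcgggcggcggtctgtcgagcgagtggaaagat
The Hk2 window held 2 marked stretches, the Ldha window 5, of which 2 read CACGTG, and the Pgam1 window 3. The motif was in 10 of the 13 windows listed for the 9 members and in 43.8% of all 32851 promoter windows of this length. These 13 are not independent, since the windows of Aldoa starts 2 and 3 overlap and share their 1 stretch. By gene, the first listed start held the motif in 6 of 9 members, and any listed start in 8. The full set was not matched to the members' windows in GC content. In that full set 17.3% held 2 or more stretches, 6.55% held 3 or more, and 7.15% held CACGTG. The windows of Tpi1 and of the first listed starts of Hk1 and Aldoa held none. Among the other windows not shown, that of Pfkp held 4 stretches and that of Hk1 start 2 held 4. The windows of Pgk1 and Ldha start 2 held 2 each, and those of Pfkl and Aldoa starts 2 and 3 held 1 each. Pfkp differed in no comparison below, and Hk1 was higher in pooled S-shaped bodies than in collecting duct. Whether the number of stretches goes with the levels was not tested. A match of letters is a description of the sequence.

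Levels below are log2 of the quantile-normalized signal plus 7.22, so a level of 2.85 is the lowest possible one and stands for a signal at or below 0. The log2 scale with that addition understates changes of dim genes. A call is an adjusted p under 0.05 (limma, Benjamini-Hochberg over all 9316 probe sets tested). A gene is given by its probe set with the highest mean, and levels of different genes are not compared, since probe sets differ in brightness. Many glycolytic genes have pseudogene copies, and the Aldoa probe sets and the leading Pfkp probe set are of types that can match related sequences, so those values may hold signal of near-identical copies.

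Some facts of the samples stand beside every result below. The mean deposited intensity per array was 47.0 ± 24.6 in single S-shaped bodies, 226 ± 19.4 in pooled S-shaped bodies, 116 ± 13.0 in renal vesicles and 304 ± 51.0 in collecting duct (SD, n = 3 each). Summed over 9 endothelial marker genes, normalized signal per array was 6540 to 8732 in single S-shaped bodies, 6902 to 8438 in pooled S-shaped bodies, 1504 to 3176 in renal vesicles and 47.5 to 84.2 in collecting duct. For 7 red blood cell genes the sums were 3563 to 7608 in single S-shaped bodies, 7634 to 8993 in pooled S-shaped bodies, 167 to 1191 in renal vesicles and 137 to 191 in collecting duct. For 10 stromal genes they were 5618 to 7453 in single and 3972 to 5245 in pooled S-shaped bodies, 372 to 1825 in renal vesicles and 37.6 to 69.0 in collecting duct. None of the 9 endothelial and 10 stromal genes was above background on all collecting duct arrays. Collecting duct markers (14 genes) summed to 474 to 1713 in single and 684 to 1325 in pooled S-shaped bodies, 204 to 1083 in renal vesicles and 11288 to 12550 in collecting duct, where 10 of 14 were above background on every array. Immediate early and stress genes (24 genes) summed to 7927 to 9958 in single and 8745 to 9368 in pooled S-shaped bodies, 10569 to 13153 in renal vesicles and 21413 to 26070 in collecting duct. The ratio of 3′ to middle actin control signal was 8.69 ± 1.50 in single and 3.67 ± 0.39 in pooled S-shaped bodies, 8.58 ± 0.61 in renal vesicles and 8.25 ± 2.09 in collecting duct (SD, n = 3 each). It was lowest in pooled S-shaped bodies, where the Gapdh control had its highest ratio of 3′ over 5′ signal, 23.9 ± 3.82, against 10.8 ± 2.00 in single S-shaped bodies, 10.96 ± 3.23 in renal vesicles and 10.3 ± 1.55 in collecting duct (SD, n = 3 each). The ratio of 3′ to 5′ actin control signal had its highest mean in single S-shaped bodies, 85.7 ± 8.64, against 38.3 ± 7.65 in pooled S-shaped bodies. It was 39.6 ± 3.61 in renal vesicles and 51.2 ± 33.4 in collecting duct (SD, n = 3 each), where replicate 2 read 89.4. The part of other cell types, stress genes and RNA quality in the results was not tested. In such bulk samples, fewer cells of a type and less RNA per cell cannot be told apart.

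Pooled S-shaped bodies had lower Hk2, Pgam1, Ldha, Pfkl and Aldoa than collecting duct and higher Hk1. Against renal vesicles they had lower Hk2, Pgam1 and Pgk1 and higher Hk1 and Tpi1. Renal vesicles differed from collecting duct in Tpi1 and Pfkl, both lower. Summed over the members, normalized signal made up 0.285% ± 0.008 of the array total in pooled S-shaped bodies, 0.364% ± 0.019 in renal vesicles and 0.439% ± 0.057 in collecting duct (SD, n = 3 each). In the comparison of pooled S-shaped bodies with collecting duct, 1 of 9 members was higher and 5 were lower, where 38.2% of all tested probe sets were called (18.2% higher and 20.0% lower); the members' median change was -0.53, against -0.07 over all probe sets. Against renal vesicles, 2 were higher and 3 lower in pooled S-shaped bodies, where 36.7% of all tested were called (17.5% higher and 19.2% lower), with a median of -0.35 against -0.03. In renal vesicles against collecting duct, 0 were higher and 2 lower, where 23.9% of all were called (12.3% higher and 11.6% lower), with a median of -0.41 against -0.02. At an unadjusted p under 0.05, the last comparison still had 0 higher members and had 3 lower, where 3398 of all 9316 tested probe sets passed. The 3 comparisons share arrays.

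**Figure D1:**
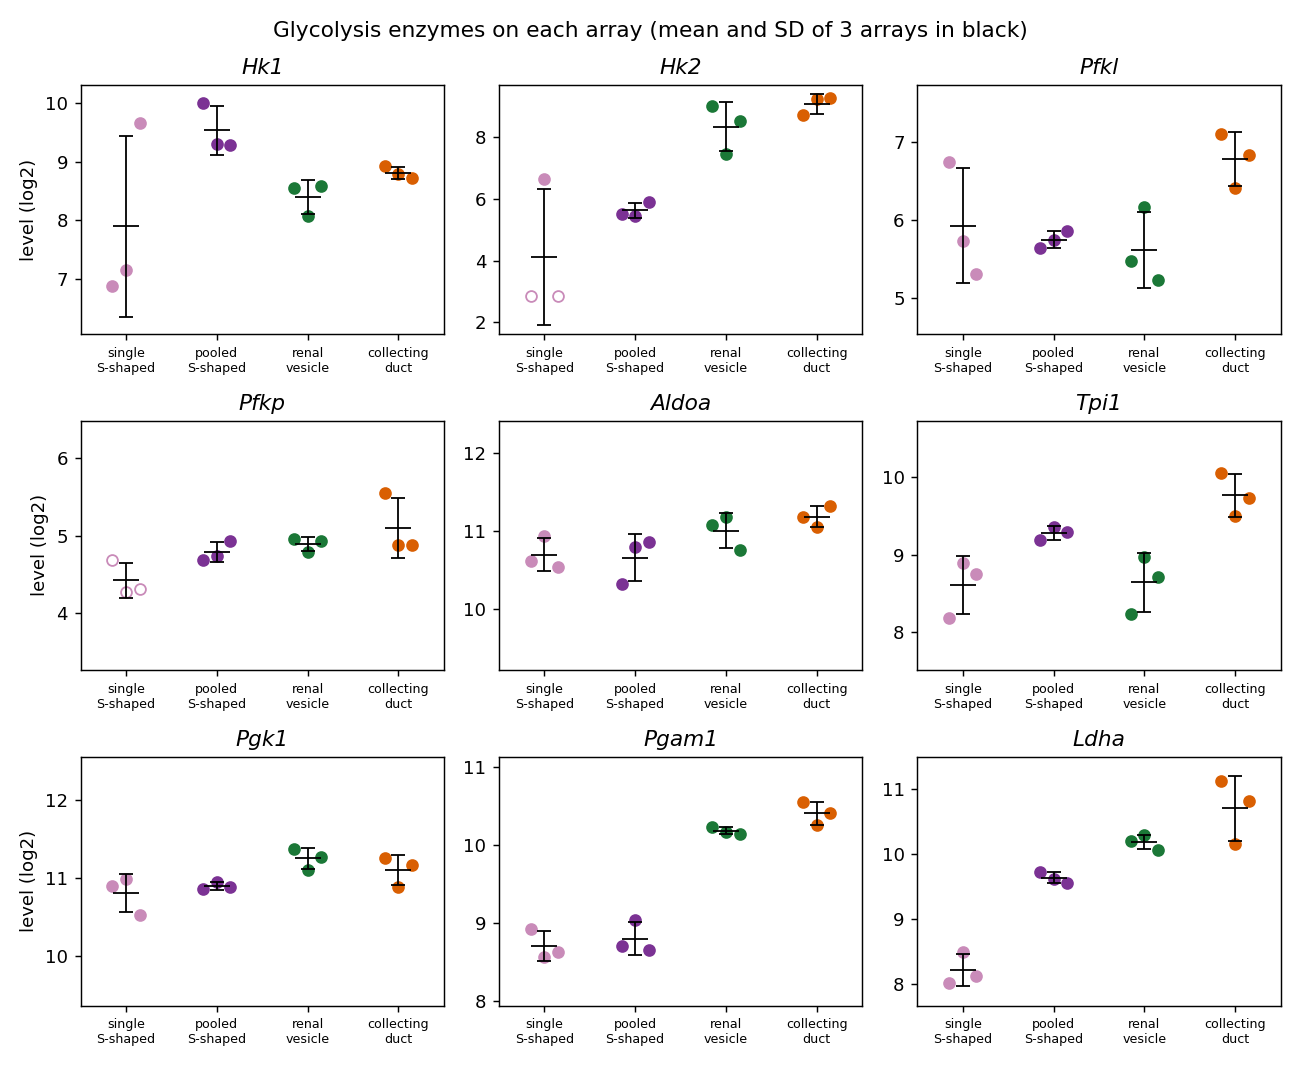
Level of each member (log2 of the normalized signal plus the pseudocount, y axis, with its own range per panel) on each of 12 arrays, by group on the x axis; points are arrays, black bars the mean and SD of 3 arrays, and open points lie at or below background. Hk2 was between 5.45 and 5.92 in pooled S-shaped bodies and between 8.71 and 9.27 in collecting duct, and 2 of 3 single S-shaped bodies sat at the lowest possible level.

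In pooled S-shaped bodies, Hk2 was lower and Hk1 higher than in both other structures. Hk2, the isoform induced by insulin and hypoxia, lies on chromosome 6 (82725025 to 82774454, GRCm38.p6). Its levels were 5.53, 5.45 and 5.92 on pooled S-shaped body arrays, 9.03, 7.46 and 8.54 in renal vesicles, and 8.71, 9.25 and 9.27 in collecting duct. All pooled S-shaped bodies were below every array of both other groups, and renal vesicles overlapped collecting duct, with 1 renal vesicle array lower than the other two. Hk2 was 10.9-fold lower in pooled S-shaped bodies than in collecting duct (log2 change -3.45 ± 0.34 SE, adjusted p = 2.05e-05) and 6.55-fold lower than in renal vesicles (-2.71 ± 0.34, adjusted p = 0.000160). Both calls held in all 18 alternative settings. Renal vesicles against collecting duct gave -0.73 ± 0.34 (adjusted p = 0.149), and without renal vesicle replicate 2 that value was -1.07 and passed (adjusted p = 0.0420). That comparison also passed on the deposited scale. A second Hk2 probe set was at or below background on all 12 arrays and was not tested.

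Hk1, the widely expressed hexokinase, lies on chromosome 10 (62268855 to 62379920). Its levels were 10.01, 9.30 and 9.29 on pooled S-shaped body arrays, 8.55, 8.07 and 8.58 in renal vesicles, and 8.92, 8.79 and 8.73 in collecting duct. Pooled S-shaped bodies lay above every array of both other groups. Hk1 was higher in pooled S-shaped bodies than in renal vesicles by 1.13 ± 0.21 (adjusted p = 0.00173), a call lost with all 12 arrays in 1 fit (adjusted p = 0.129). Against collecting duct it was higher by 0.72 ± 0.21 (adjusted p = 0.0198). That call was lost in 6 of 18 alternatives, among them the deposited scale, no filter and all 12 arrays in 1 fit. The others were without pooled S-shaped body replicate 1 and without collecting duct replicate 2 or 3. In these the change was 0.48 to 0.71 and the adjusted p 0.0545 to 0.0758. Hk1 is highly expressed in red blood cells, whose summed markers were higher in pooled and in single S-shaped bodies than in both other structures. On single S-shaped body arrays Hk1 read 6.87, 7.15 and 9.66. The part of red blood cells in the Hk1 changes was not tested.

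The phosphofructokinases catalyse the committing step, and Pfkl and Pfkp are the liver and platelet types. Pfkl (chromosome 10, 77986947 to 78009807) was at 5.64, 5.74 and 5.86 on pooled S-shaped body arrays, 5.46, 6.16 and 5.22 in renal vesicles, and 7.11, 6.41 and 6.83 in collecting duct. Every pooled S-shaped body and renal vesicle array was below every collecting duct array. Against collecting duct, Pfkl was 2.24-fold lower in renal vesicles (-1.16 ± 0.28, adjusted p = 0.0126), and in pooled S-shaped bodies it was lower too (-1.03 ± 0.28, adjusted p = 0.0141). Both calls were lost without collecting duct replicate 1, with adjusted p = 0.0572 for renal vesicles and 0.0626 for pooled S-shaped bodies. The renal vesicle call was also lost with the replicate block. Pfkp (chromosome 13, 6579874 to 6649060) lay near background: its leading probe set read 4.69, 4.74 and 4.93 on pooled S-shaped body arrays, 4.95, 4.79 and 4.93 in renal vesicles, and 5.55, 4.88 and 4.88 in collecting duct. No comparison of Pfkp passed, and its second probe set exceeded background on no renal vesicle array and on 1 array of each other group.

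Aldoa, the aldolase of muscle and most embryonic tissues, lies on chromosome 7 (126795234 to 126800994). Its leading probe set was at 10.31, 10.79 and 10.86 on pooled S-shaped body arrays, 11.08, 11.18 and 10.75 in renal vesicles, and 11.18, 11.05 and 11.31 in collecting duct. Pooled S-shaped bodies lay below collecting duct without overlap (-0.53 ± 0.16, adjusted p = 0.0233), but overlapped renal vesicles. That call was lost in 6 of 18 alternatives, among them those without pooled S-shaped body replicate 1 or collecting duct replicate 1 or 3 (change -0.53 to -0.36, adjusted p = 0.0601 to 0.0901). The second Aldoa probe set was at 9.91, 10.06 and 9.92 on pooled S-shaped body arrays, 10.24, 10.32 and 10.20 in renal vesicles and 10.71, 10.67 and 10.69 in collecting duct, with no overlap among the groups. It was lower in pooled S-shaped bodies by 0.72 on the log2 scale against collecting duct (-0.72 ± 0.10, adjusted p = 0.000161). In renal vesicles it was also lower than in collecting duct (-0.43 ± 0.10, adjusted p = 0.00797), where the leading probe set did not pass (-0.18 ± 0.16, adjusted p = 0.461). The renal vesicle call of the second probe set was lost with 75th percentile scaling (-0.16, adjusted p = 0.389), with no mean-variance trend (adjusted p = 0.0618) and with the replicate block (adjusted p = 0.0833).

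Tpi1, triose phosphate isomerase (chromosome 6, 124810586 to 124814158), was at 9.19, 9.36 and 9.29 on pooled S-shaped body arrays, 8.23, 8.97 and 8.72 in renal vesicles, and 10.05, 9.50 and 9.72 in collecting duct. The groups did not overlap, and the order was renal vesicle, pooled S-shaped body, collecting duct. Tpi1 was 2.17-fold lower in renal vesicles than in collecting duct (-1.12 ± 0.20, adjusted p = 0.00206), and this held in all 18 alternatives. Pooled S-shaped bodies were above renal vesicles (0.64 ± 0.20, adjusted p = 0.0262), a call lost in 7 of 18 alternatives. It was lost with 75th percentile scaling, no filter, no mean-variance trend and the replicate block. It was also lost without renal vesicle replicate 2 or pooled S-shaped body replicate 2 or 3 (0.43 to 0.63, adjusted p = 0.0653 to 0.0907). Against collecting duct, pooled S-shaped bodies did not pass (-0.48 ± 0.20, adjusted p = 0.0769). That comparison passed on the deposited scale and when 1 renal vesicle array, replicate 2 or 3, was left out of the shared fit (adjusted p = 0.0350 and 0.0492). In single S-shaped bodies Tpi1 read 8.18, 8.89 and 8.74, which did not pass against renal vesicles (-0.04, adjusted p = 0.936).

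Pgk1, phosphoglycerate kinase on the X chromosome (106187100 to 106203699), was at 10.86, 10.95 and 10.88 on pooled S-shaped body arrays, 11.38, 11.10 and 11.27 in renal vesicles, and 11.25, 10.88 and 11.17 in collecting duct. Pooled S-shaped bodies lay below renal vesicles without overlap and overlapped collecting duct. Pgk1 was lower in pooled S-shaped bodies than in renal vesicles (-0.35 ± 0.12, adjusted p = 0.0348), but at 0.50 on the deposited scale, where the median of all probe sets moved by 0.97. The call was lost in 9 of 18 alternatives, among them those without renal vesicle replicate 2 or 4 or any pooled S-shaped body array (-0.38 to -0.29, adjusted p = 0.0614 to 0.117). The other comparisons of Pgk1 between the 3 groups did not pass.

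Pgam1, phosphoglycerate mutase (chromosome 19, 41911871 to 41918665), separated S-shaped bodies from both other structures. Its levels were 8.70, 9.04 and 8.66 on pooled S-shaped body arrays, 10.23, 10.17 and 10.15 in renal vesicles, and 10.56, 10.25 and 10.41 in collecting duct. Renal vesicle arrays varied little (10.18 ± 0.04, SD, n = 3) and were just below the lowest collecting duct array. Pgam1 was 3.05-fold lower in pooled S-shaped bodies than in collecting duct (-1.61 ± 0.13, adjusted p = 5.48e-06), and 2.61-fold lower than in renal vesicles (-1.38 ± 0.13, adjusted p = 2.99e-05). The first call held in all 18 alternatives and the second in 17, the exception being the deposited scale. Renal vesicles against collecting duct gave -0.22 ± 0.13 (adjusted p = 0.251).

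Ldha (chromosome 7, 46842274 to 46855627) was at 9.73, 9.61 and 9.56 on pooled S-shaped body arrays, 10.20, 10.29 and 10.07 in renal vesicles, and 11.13, 10.16 and 10.82 in collecting duct. Pooled S-shaped bodies were below every array of both other groups, while renal vesicles overlapped collecting duct through its replicate 2. Ldha was 2.10-fold lower in pooled S-shaped bodies than in collecting duct (-1.07 ± 0.20, adjusted p = 0.00170), in all 18 alternatives. Against renal vesicles the change was -0.55 ± 0.20 (adjusted p = 0.0535), and it passed without collecting duct replicate 1 or 2 in the shared fit (adjusted p = 0.0278 and 0.00615). It also passed with 75th percentile scaling, the 50th percentile filter and the replicate block. Over the 18 alternatives this change ran from -0.77 to 0.41. Renal vesicles against collecting duct gave -0.52 ± 0.20 (adjusted p = 0.0886), which passed at -0.79 without collecting duct replicate 2 (adjusted p = 0.00374) and also on the deposited scale.

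**Figure D2:**
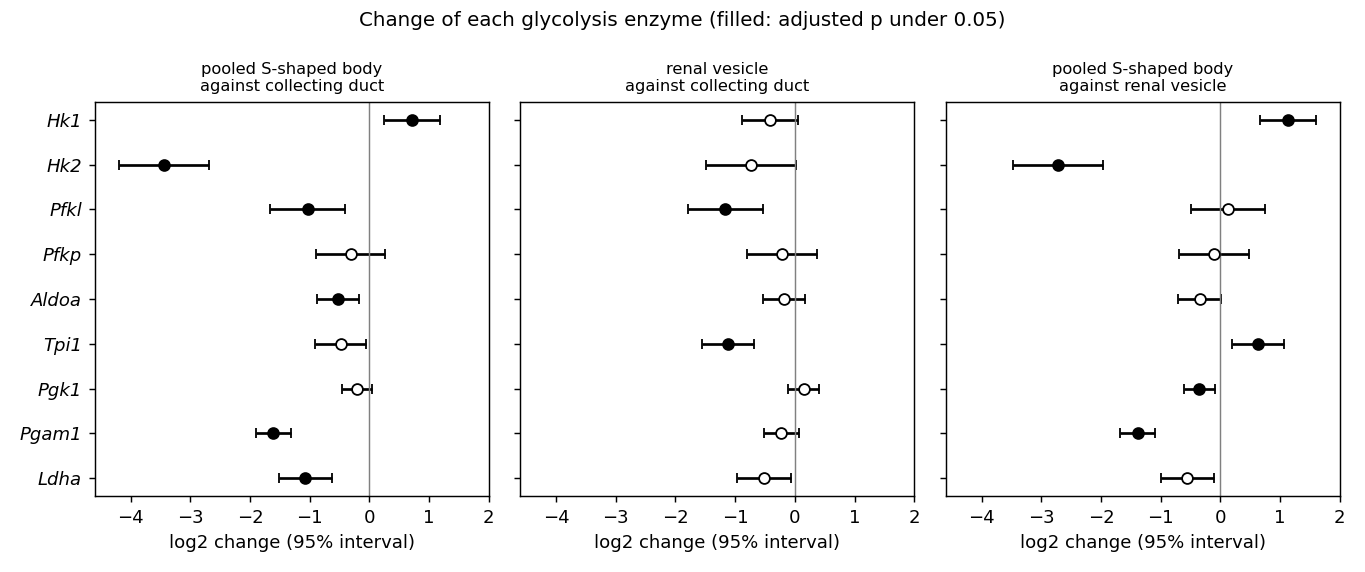
Log2 change (x axis) of each member with its 95% interval in the 3 comparisons of the fit on 9 arrays; filled points passed an adjusted p of 0.05. Against collecting duct, 6 members are filled for pooled S-shaped bodies and 2 for renal vesicles, and Hk2 at -3.45 lies farthest from 0.

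Single S-shaped bodies were set against pooled ones to see how RNA amplified from 1 structure compares. Ldha was the 1 member called, lower in single bodies, where 0.397% of all tested probe sets (37) were called, 0.247% higher and 0.150% lower. Ldha read 8.02, 8.50 and 8.13 in single bodies against 9.73, 9.61 and 9.56 in pooled bodies, a change of -1.42 ± 0.17 (adjusted p = 0.0235). That call was lost in 6 of 14 alternatives, among them those without any 1 pooled array or without single replicate 3 (-1.45 to -1.32, adjusted p = 0.0523 to 0.163). Hk2 read 2.85, 6.66 and 2.85 in single bodies, above background on 1 of 3 arrays, against 5.53, 5.45 and 5.92 in pooled bodies (-1.51 ± 0.95, adjusted p = 0.442). Hk1 read 6.87, 7.15 and 9.66 in single bodies, and its change of -1.64 ± 0.66 did not pass (adjusted p = 0.250). It passed when single replicate 5 was left out (-2.52, adjusted p = 0.0339) and on the deposited scale. Pgam1 read 8.92, 8.57 and 8.62 in single bodies, against 8.70, 9.04 and 8.66 in pooled bodies, and the groups overlapped (-0.09 ± 0.18, 95% interval -0.51 to 0.32). Single bodies had lower overall signal, with 51.7% ± 3.1 of probe sets above background, against 56.7% ± 1.6 in pooled bodies (SD, n = 3 each).

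Against collecting duct, 5 of 9 members were lower in single S-shaped bodies and 0 higher, where 33.8% of all tested probe sets were called (16.0% higher and 17.9% lower). These were Hk2 (-4.95 ± 0.92, adjusted p = 0.00381, with 1 of 3 single arrays above background), Ldha (-2.49 ± 0.26, adjusted p = 0.000235), Pgam1 (-1.70 ± 0.16, adjusted p = 0.000146), Tpi1 (-1.15 ± 0.23, adjusted p = 0.00539) and Aldoa (-0.49 ± 0.14, adjusted p = 0.0287). The first 4 held in all 14 alternatives. The size of the Hk2 change depends on the pseudocount, since 2 of 3 single arrays were at the lowest possible level: it ran from -5.85 to -3.59 over the other pseudocounts against collecting duct, and from -5.10 to -2.90 against renal vesicles. Aldoa was lost in 7 of 14 alternatives, among them those without collecting duct replicate 1 or 3 or single replicate 3 or 5 (adjusted p = 0.0635 to 0.107), and was at -0.08 with 75th percentile scaling (adjusted p = 0.742). The second Aldoa probe set did not pass (-0.12 ± 0.13, adjusted p = 0.529). Pfkl passed without single replicate 3 (-1.26, adjusted p = 0.0170) and Hk1 without single replicate 5 (-1.80, adjusted p = 0.00108), and both also passed on the deposited scale. Against renal vesicles 3 members were lower and 0 higher, where 27.1% of all were called (12.5% higher and 14.6% lower): Hk2 (-4.22 ± 0.94, adjusted p = 0.0107), Ldha (-1.97 ± 0.19, adjusted p = 0.000316) and Pgam1 (-1.48 ± 0.17, adjusted p = 0.000581). The Hk2 call was lost without renal vesicle replicate 2 (-3.88, adjusted p = 0.0550) and with no filter (adjusted p = 0.0886), and Hk1 passed without single replicate 5 (-1.39, adjusted p = 0.0121). Hk1 also passed there with the replicate block and on the deposited scale. Pfkp was above background on 0 of 3 single arrays.

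Gapdh and Gpi1 had no probe set with 1 symbol. The 3′ control probe set for Gapdh, chosen after its values were seen and not tested, read 10.92, 10.80 and 11.11 on pooled S-shaped body arrays, 11.96, 12.01 and 11.64 in renal vesicles, and 11.57, 11.26 and 11.66 in collecting duct. All pooled S-shaped bodies were below both other groups in these values and on the 5′ control probe set. On the middle control probe set, pooled replicate 1 (8.38) was above collecting duct replicate 2 (8.36). Single S-shaped bodies read 10.90, 10.82 and 10.28 on the 3′ probe set. On the 5′ probe set they read 8.07, 7.43 and 7.26, against 6.48, 6.11 and 6.71 in pooled S-shaped bodies.

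Of 8 other isozymes of the pathway tested, 1 was higher and 1 lower in pooled S-shaped bodies than in collecting duct, where 38.2% of all tested probe sets were called. Bpgm, which makes the haemoglobin ligand 2,3-bisphosphoglycerate in red cells, was higher (0.98 ± 0.26, adjusted p = 0.0121). Pkm, the pyruvate kinase of most tissues, was lower (-0.99 ± 0.18, adjusted p = 0.00131). Against renal vesicles 0 were higher and 4 lower, where 36.7% of all tested were called (17.5% higher and 19.2% lower). The largest were Adpgk (-1.23) and Eno3 (-1.14), with Pkm at -0.68 ± 0.18 (adjusted p = 0.0121) and Ldhb at -0.63 ± 0.20 (adjusted p = 0.0317). Ldhb did not pass in pooled S-shaped bodies against collecting duct (-0.25 ± 0.20, adjusted p = 0.362), where Ldha fell. In renal vesicles against collecting duct, 1 was higher (Adpgk, 1.13 ± 0.28, adjusted p = 0.0140) and 0 lower, where 23.9% of all were called.

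Among genes of transport and flux control, the share called in pooled S-shaped bodies against collecting duct was near the 38.2% of all tested probe sets. Of 8 transport genes tested, 1 was higher and 2 lower: Slc2a1, the main glucose transporter of embryonic tissue, was at -2.48 ± 0.75 (adjusted p = 0.0234), above background on 2 of 3 pooled arrays. Slc16a7, a monocarboxylate transporter, was not above background in pooled S-shaped bodies and was at least 3.03-fold lower (adjusted p = 1.14e-05). Slc2a4, not above background in collecting duct, was at least 1.37-fold higher (adjusted p = 0.00498). Of 14 flux regulators tested, 2 were higher and 4 lower: Pdk1, the kinase that shuts pyruvate dehydrogenase, was 7.29-fold lower (-2.87 ± 0.24, adjusted p = 5.96e-06), and Egln1, a prolyl hydroxylase that marks the hypoxia-inducible factors for decay, was lower by 1.51 on the log2 scale (-1.51 ± 0.25, adjusted p = 0.000706). Hif1a was lower in pooled S-shaped bodies (-0.48 ± 0.09, adjusted p = 0.00142) and in renal vesicles (-0.27 ± 0.09, adjusted p = 0.0447) than in collecting duct. Mycn, a Myc protein of nephron progenitors, was 9.56-fold higher in renal vesicles than in collecting duct (3.26 ± 0.18, adjusted p = 5.97e-07), and pooled S-shaped bodies fell below renal vesicles (-2.72 ± 0.18, adjusted p = 5.13e-06).

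Genes known to respond to hypoxia but outside glycolysis did not move one way. Of 16 tested, 4 were higher and 5 lower in pooled S-shaped bodies than in collecting duct, with a median of -0.01 against -0.07 for all probe sets. In that comparison 38.2% of all tested probe sets were called (18.2% higher and 20.0% lower), a share that stands beside each count in this paragraph. Igfbp3, not above background in collecting duct, was at least 28.1-fold higher (adjusted p = 2.56e-06), and Ddit4, a brake on mTOR signalling, was lower (-2.41 ± 0.33, adjusted p = 0.000208). Of 7 genes of the pentose phosphate pathway, 1 was higher and 3 lower, with the transketolase Tkt 6.54-fold lower (-2.71 ± 0.21, adjusted p = 3.43e-06) and Taldo1 at -1.81 ± 0.15 (adjusted p = 6.84e-06). Tkt was also lower in pooled S-shaped bodies than in renal vesicles (-2.90 ± 0.21, adjusted p = 6.83e-06). Of 7 genes from pyruvate to citrate, 0 were higher and 2 lower, with Me1, a cytosolic malic enzyme, at -2.96 ± 0.26 (adjusted p = 8.23e-06) and Pdha1 at -0.46 ± 0.15 (adjusted p = 0.0342). Of 7 genes of glycogen and sugar phosphate metabolism, 2 were higher and 2 lower, with Pygb, a glycogen phosphorylase, at -1.37 ± 0.21 (adjusted p = 0.000459) and Pgm2 at 0.93 ± 0.17 (adjusted p = 0.00134). Of 4 gluconeogenesis genes, 0 were called by limma in that comparison. At an unadjusted p under 0.05, 0 of them passed, where 4329 of all 9316 tested probe sets did.

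**Figure D3:**
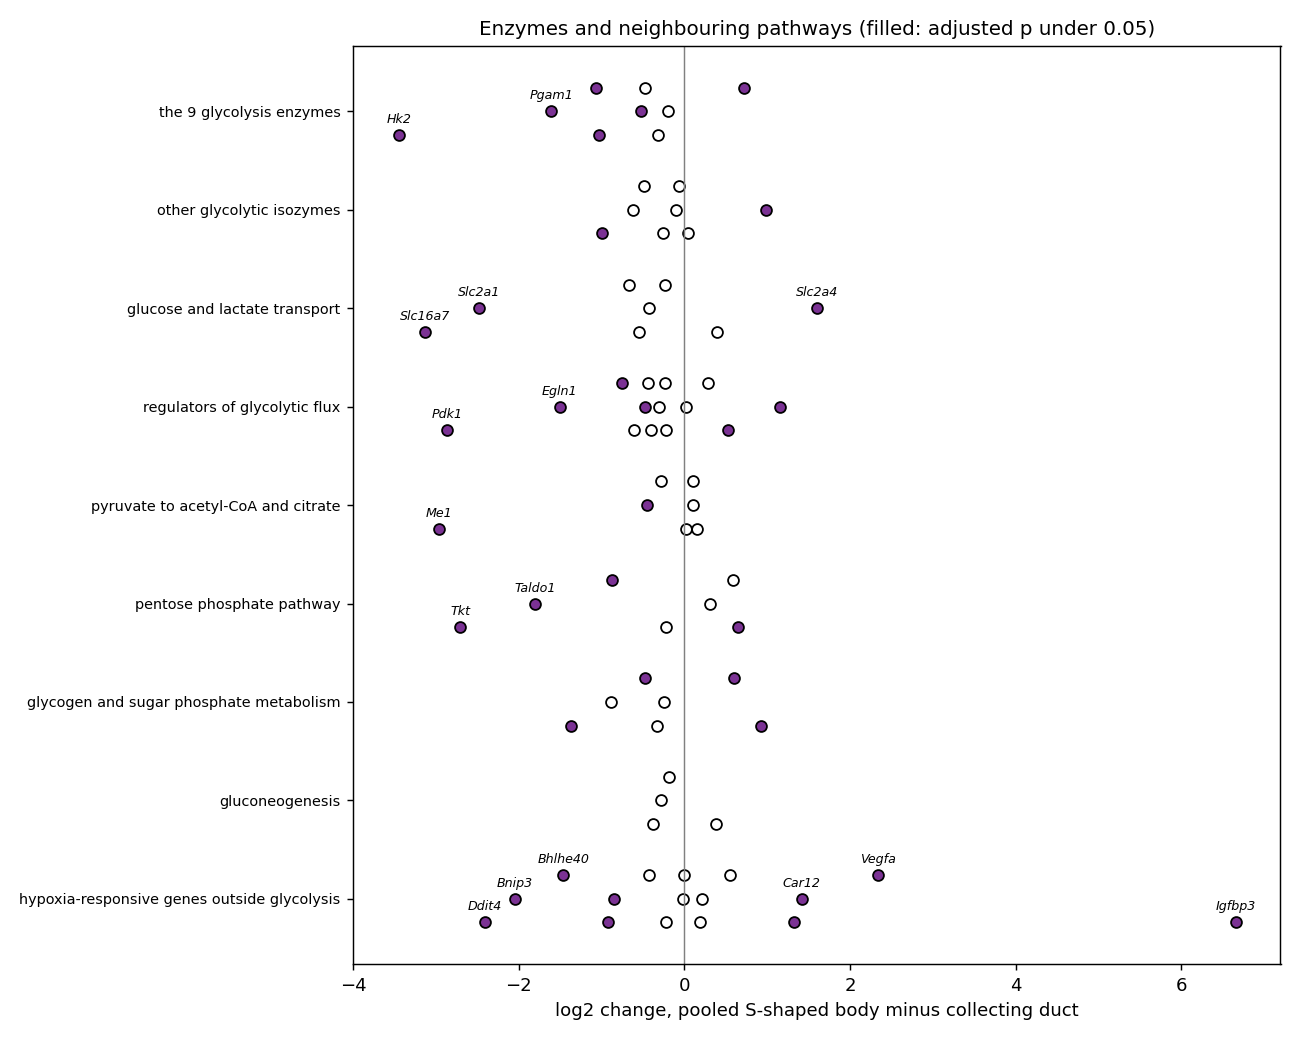
Log2 change of each tested gene (points, 1 row per list) in pooled S-shaped bodies against collecting duct; filled points passed an adjusted p of 0.05, height within a row has no meaning, and labels name called genes far from 0. Hk2, Slc16a7, Me1, Pdk1 and Tkt lie at the low end and Igfbp3 at the high end, and fitted values of genes not above background in 1 group (Igfbp3, Slc16a7, Slc2a4) depend on the pseudocount.

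Over the 12 arrays, the genes whose levels were most like those of Hk2 were Rhou (Pearson r = 0.98), Tgif1 (0.96), Slc39a8 (0.96), Wwc1 (0.96) and E4f1 (0.95), among 6760 genes searched. For Ldha they were Pnn (0.99), Metap1 (0.97), Sptlc1 (0.97), Ythdf3 (0.97) and Rnf138 (0.97). These are descriptions over 12 arrays that fall into 4 groups and share 1 normalization.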

How the data were processed

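Structures were microdissected from mouse kidneys, and their RNA was extracted with TRIzol, amplified and labelled with biotin, per the labels' protocols. The authors deposited 1 intensity value per probe set and array, linear and with negative values, for 12422 probe sets and 66 controls. GCOS is named in the submitters' processing notes without a version, and how it summarised probes and corrected background was not given in the sources used here. Array medians differed up to 17.8-fold, so the arrays were quantile normalized together without the controls. Values under 0 were set to 0, and log2 was taken after adding 7.22, which is 25% of the overall median. The dimmest probe sets, below the 25th percentile of means, were not tested. A probe set was above background on an array where its deposited intensity was larger than the size of the negative 5th percentile of that array. "At least" folds set the brighter group's mean against that level.

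The test was limma 3.58.1 under R 4.3.3, two-sided with a mean-variance trend and Benjamini-Hochberg adjustment, and was also tested on simulated data. Pooled S-shaped bodies, renal vesicles and collecting duct shared a fit of 9 arrays, and each comparison of single S-shaped bodies used its 6 arrays. Of the probe sets, 10833 had 1 gene symbol, 396 several and 1193 none (8251 genes). A gene was read from its probe set with the highest mean. All members were described, and of each other list the 2 called genes with the largest change, plus Gapdh, Pkm, Gpi1, Slc2a1, Hif1a and Ldhb. The members and lists were chosen with earlier results of these data known. Alternatives were other pseudocounts, scalings and filters, no trend, all 12 arrays in 1 fit, the replicate number as a block, and leaving out each array.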

Additional observations from a re-analysis of the deposited data

Results flagged for a closer look

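The change against collecting duct differed between pooled S-shaped bodies and renal vesicles for 5 members and a second Aldoa probe set, by the limma comparison of pooled S-shaped bodies with renal vesicles, in which 36.7% of all tested probe sets were called. On the log2 scale, pooled S-shaped bodies minus renal vesicles was -2.71 for Hk2 (adjusted p = 0.000160), -1.38 for Pgam1 (adjusted p = 2.99e-05) and 1.13 for Hk1 (adjusted p = 0.00173). It was 0.64 for Tpi1 (adjusted p = 0.0262), -0.35 for Pgk1 (adjusted p = 0.0348) and -0.29 for the second Aldoa probe set (adjusted p = 0.0360), and the last 2 turned to 0.50 and 0.68 on the deposited scale. The call of the second Aldoa probe set was also lost in 9 of 18 alternatives: with no trend, all 12 arrays or the replicate block (adjusted p = 0.0773 to 0.151), and without any 1 renal vesicle array, pooled S-shaped body replicate 1 or 3, or collecting duct replicate 1 (-0.32 to -0.26, adjusted p = 0.0522 to 0.111). For Hk1 the change against collecting duct was 0.72 in pooled S-shaped bodies and -0.41 in renal vesicles.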

How the results depend on the processing

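Of the member values recomputed under the alternatives, 912 kept their direction and side of the threshold, 26 changed sign while called in neither setting, 60 lost a call and 47 gained one. On the deposited scale, where the arrays were not brought together, the median of all probe sets moved by -1.37 (renal vesicles against collecting duct), -0.39 (pooled S-shaped bodies against collecting duct), 0.97 (pooled S-shaped bodies against renal vesicles), -2.16 (single against pooled), -2.49 (single against collecting duct) and -1.03 (single against renal vesicles). The share of higher calls there was 3.23%, 24.7%, 93.9%, 0.252%, 2.40% and 4.99% in that order. Calls on that scale numbered 7268 probe sets and 9 members for renal vesicles against collecting duct, 5432 probe sets for pooled bodies against renal vesicles, 8345 and 9 for single against pooled, 8299 and 9 for single against collecting duct, and 4349 and 8 for single against renal vesicles. Reversed there were Pgk1 in renal vesicles against collecting duct (-1.09); the second Aldoa probe set (0.68), Pgk1 (0.50) and Pfkp (0.88) in pooled S-shaped bodies against renal vesicles; Aldoa (-2.36 and -1.87), Pfkl (-2.08) and the second Pfkp probe set (-1.38) in single against pooled; and that Pfkp probe set in single against collecting duct (-1.38). Relative to the median of all probe sets, 0 of 25 called member values changed sign over the scalings. These 25 were picked by their call on the main scaling, which made a change of sign unlikely. Among member values not called, 9 changed sign and 32 did not. Single against pooled gave 146 probe sets with 75th percentile scaling (78.1% higher), 19 with the 50th percentile filter (73.7% higher) and 424 with all 12 arrays (48.6% higher). It gave 0 members with no filter and with no trend, where 28 and 39 probe sets were called. Pooled S-shaped bodies against renal vesicles gave 3 members with no filter, no trend or all 12 arrays. In these settings 3042, 3220 and 2779 probe sets were called, against 3423 in the main setting. Leaving out 1 array gave 1636 to 2262 probe sets and 1 to 3 members for renal vesicles against collecting duct, 2866 to 3717 and 4 to 7 for pooled S-shaped bodies against collecting duct, 2770 to 3401 and 3 to 6 for pooled bodies against renal vesicles, 1 to 72 and 0 to 2 for single against pooled, 2124 to 3310 and 4 to 5 for single against collecting duct, and 1539 to 2344 and 2 to 4 for single against renal vesicles. Same-numbered arrays did not deviate together (correlations -0.09 to 0.05). With so few arrays per group, this cannot show whether the numbers pair the samples. With the replicate block, 1383 probe sets and 1 member were called for renal vesicles against collecting duct, 3346 and 6 for pooled S-shaped bodies against collecting duct, 2448 and 4 for pooled bodies against renal vesicles, and 1113 and 4 for single against renal vesicles. No paired analysis was possible because the groups share fewer than 2 numbers for single against pooled and single against collecting duct. The cause of these shifts was not tested beyond what the settings themselves change.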
